A study of Huso dauricus x Acipenser schrenckii with 16 samples.

Results

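The granulosa layer of the ovarian follicle was followed here through 8 of the 41685 gene rows in an ovary expression table from hybrid sturgeon. They were chosen by name, as the row annotated as the follicle-stimulating hormone (FSH) receptor (LOC117410409), the luteinizing hormone (LH) receptor row lhcgr, aromatase (LOC117428169), the transcription factor FOXL2 (LOC117416901), 2 rows annotated as anti-Müllerian hormone (AMH; LOC117401371 and LOC117428873), the LIM homeobox factor LHX9 (LOC131707143) and the Wilms tumor protein WT1 (LOC117434596). All 16 ovary libraries came from adult females of a farmed hybrid with Huso dauricus as the maternal and Acipenser schrenckii as the paternal species, held under normal breeding conditions. A population ranked as high in caviar yield gave 8 libraries and another, ranked as low, gave the other 8. Yield and any other difference between the populations cannot be told apart.

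Granulosa cells are the somatic cells that surround the oocyte. The FSH receptor and the LH receptor on follicle cells raise cyclic AMP inside the cell when the pituitary hormones bind, and this drives steroid synthesis. Aromatase turns androgens into estrogens, and in fish the estradiol so made prompts the liver to produce yolk precursor. FOXL2 keeps granulosa cells in their ovarian fate, whereas LHX9 and WT1 act early, in the somatic cells of the forming gonad, as known from mice. The libraries are of whole ovary tissue and do not show which cells held these transcripts.

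Libraries held from 37362125 to 60873931 counts. The 8 high-yield libraries formed 4 pairs (1 with 5, 2 with 6, 3 with 7 and 4 with 8) whose counts had a Spearman's rho of 0.973 to 0.981, against at most 0.960 for any other 2 of the 16 libraries. Each pair was therefore counted as 1 sample, which left 4 high-yield samples and 8 low-yield libraries. On the first principal component of these 12 samples, high-yield 1 and 5, high-yield 2 and 6, low-yield 2 and low-yield 5 had scores of -149 to -67.1, apart from the other 8 samples at 36.0 to 58.1. Low-yield 2 and 5 also carried the most RNA of connective tissue, vessel and leukocyte markers, as given below, so each fold change of the 8 genes is stated with and without them. Without them, all remaining low-yield libraries lie on the same side of this component, while high-yield 1 and 5 and high-yield 2 and 6 stay on the other. In those fits yield is therefore partly confounded with this component, and they are not a cleaner comparison of yield. Levels are in CPM, the count scaled to the size of its library, with TMM, a factor that corrects for differences in library composition. A count of 0 allows up to 3 counts, which is 0.0493 to 0.0803 CPM before TMM scaling and covers counting error only.

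None of the 8 genes passed the test between the yield groups. All 8 had enough counts to be tested, and 0 of 8 had an adjusted p under 0.05 by edgeR's quasi-likelihood test, with adjusted p from 0.574 to 0.907 (Benjamini-Hochberg, over every gene in the fit). The background was the same, since 0 of the 30009 genes tested (0.0%) passed. With the 16 libraries treated as independent, 0 of the 8 passed beside 16 of 27653 genes (0.0579%), and without low-yield 2 and 5, 0 of the 8 passed beside 0 of 28146. At an unadjusted p under 0.05 stood 1 of the 8, the LHX9 row, beside 2557 of all tested genes (8.52%). The log2 fold change, high over low yield, was below 0 in 7 of the 8, with aromatase as the exception, beside 51.4% of all tested genes. In 6 of the 8 genes the highest of the 12 samples was low-yield 2 or 5, and this held for 31.2% of all tested genes. In bulk tissue, fewer cells of a type and less RNA per cell cannot be told apart.

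**Figure D1:**
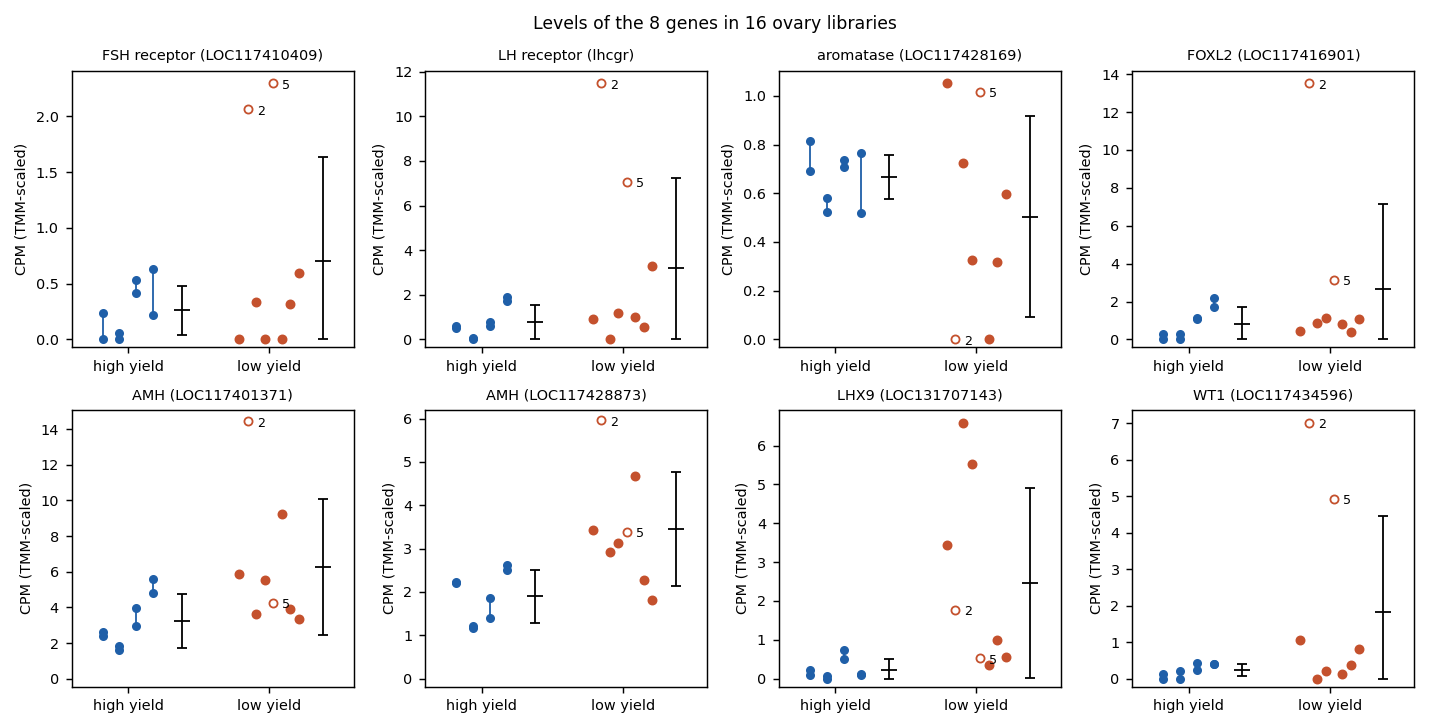
Levels (vertical axis, TMM-scaled CPM) of the 8 genes in high-yield libraries (blue, near-identical pairs joined by a line) and low-yield libraries (red, with low-yield 2 and 5 open and numbered). Black marks are the mean ± SD over 4 pair means or 8 libraries, with the lower bar ending at 0 where the SD exceeds the mean, and low-yield 2 is the highest sample for lhcgr, FOXL2, WT1 and both AMH rows.

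The FSH receptor row was low in most samples and was high in low-yield 2 and 5 only. In the 4 high-yield samples it stood at 0.119, 0.0272, 0.475 and 0.423 CPM (pairs 1 and 5, 2 and 6, 3 and 7, 4 and 8 in turn). In low yield the lowest library was at 0, the median was 0.326 and the highest was 2.29 CPM. Low-yield 5 (2.29 CPM) and low-yield 2 (2.06 CPM) were far above the other 6, which ran from 0 to 0.599 CPM, a range that spans the high-yield samples. In all, 5 of 16 libraries had a count of 0. The mean was 0.261 ± 0.221 CPM over high-yield samples (SD, n = 4) and 0.701 ± 0.938 CPM over low-yield ones (SD, n = 8). The log2 fold change was -1.40 ± 1.52 (SE; edgeR adjusted p = 0.765), and without low-yield 2 and 5 it was 0.32 ± 1.32 (SE; edgeR adjusted p = 0.943). The direction of this gene therefore rested on those 2 libraries.

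The LH receptor row lhcgr had the same 2 libraries at its top. This row was annotated by likeness to an LH receptor-like protein of Lepisosteus oculatus, and whether it is the LH receptor was not tested. The other LH receptor rows, given below, were annotated as the Acipenser ruthenus protein. In the fold changes, ratios and correlations of the 8 genes, the LH receptor stands for lhcgr only. High-yield samples were at 0.563, 0.0374, 0.697 and 1.81 CPM. Low-yield libraries ran from 0 through a median of 1.08 to 11.5 CPM. Low-yield 2 (11.5 CPM) and 5 (7.06 CPM) exceeded every high-yield sample, and low-yield 8 (3.27 CPM) did too, while the other 5 lay within or close to the high-yield range. Together low-yield 2 and 5 held 72.8% of the low-yield total of this gene. Its log2 fold change was -2.0 ± 1.27 (SE; edgeR adjusted p = 0.644), and -0.57 ± 1.10 (SE; edgeR adjusted p = 0.862) without them. Per sample, the difference in mean log2(CPM + 0.5) had a two-sided exact permutation p of 0.273 for lhcgr and 0.537 for the FSH receptor (n = 4 and 8).

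The ratio of FSH receptor to LH receptor within each sample did not differ beyond its spread. Its log2 value averaged -0.61 ± 0.57 (SD, n = 4) in high yield and -1.24 ± 0.96 (SD, n = 8) in low yield. The difference of 0.63 had an exact permutation p of 0.246 (two-sided), or 0.293 after adjustment over the 8 ratios tested. In most samples the FSH receptor was below the 0.5 CPM added to each level, so this ratio largely follows lhcgr. With 0.05 CPM added instead, the difference was 1.05 (exact permutation p = 0.461).

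Aromatase was the one gene of the 8 whose mean was higher in high yield. The high-yield samples stood at 0.753, 0.552, 0.722 and 0.642 CPM, a mean of 0.667 ± 0.0900 CPM (SD, n = 4). Low-yield libraries ranged from 0 through a median of 0.463 to 1.05 CPM, with a mean of 0.504 ± 0.413 CPM (SD, n = 8). Low-yield 2 and low-yield 6 had no count at all, and low-yield 1 (1.05 CPM) and 5 (1.02 CPM) were above every high-yield sample, so the groups overlapped. Low-yield 2, the top sample for 5 of the other 7 genes, was thus among the lowest for aromatase. The log2 fold change was 0.44 ± 1.09 (SE; edgeR adjusted p = 0.907) and 0.43 ± 0.87 without low-yield 2 and 5 (SE; edgeR adjusted p = 0.867), and the exact permutation p was 0.337. An annotated row on the other strand overlaps this gene, and whether counting used the strand is not given in the sources used here.

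Set against aromatase in the same sample, each of the other 7 genes had a lower mean ratio in high yield. For the LHX9 row the log2 ratio was -0.73 ± 0.41 (SD, n = 4) in high yield and 1.24 ± 1.23 (SD, n = 8) in low yield, a difference of -1.97. That difference had an exact permutation p of 0.0121 and an adjusted p of 0.0970 over the 8 ratios, so it did not pass. With a pseudocount of 0.05 CPM in place of 0.5 the difference was -3.93 and passed (exact permutation p = 0.0061, adjusted p = 0.0485). That pseudocount lies at the low end of what a count of 0 allows. Aromatase had no count in low-yield 2 and 6, and the LHX9 row none in high-yield 2, so counts of 0 weigh more in this setting. The next were AMH LOC117428873 over aromatase at a difference of -1.02 (exact permutation p = 0.0768) and AMH LOC117401371 over aromatase at -1.13 (exact permutation p = 0.107), each with an adjusted p of 0.238. Low-yield 2 and 6, where the denominator is the pseudocount alone, were also the highest samples for both AMH rows. The part of these libraries in the AMH ratios was not tested. FOXL2 over aromatase differed by -1.10 (exact permutation p = 0.267). These 7 ratios share the same denominator, so they are not separate observations. Levels were not compared between genes, because the lengths implied by the deposited counts and FPKM were not usable (108 bases for lhcgr and 133 bases for the LHX9 row, and longer than the whole gene for 2 of the 8).

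FOXL2, which holds granulosa cells in the ovarian fate and in fish and mammals switches on aromatase, was set apart by 1 library. High-yield samples had 0.159, 0.149, 1.10 and 1.93 CPM. Low-yield libraries had a lowest value of 0.370, a median of 0.981 and a highest value of 13.5 CPM. That highest value was low-yield 2, followed by low-yield 5 at 3.15 CPM, and the other 6 reached no more than 1.13 CPM, inside the high-yield range. The mean was 0.835 ± 0.857 CPM over high-yield samples (SD, n = 4) and 2.67 ± 4.46 CPM over low-yield ones (SD, n = 8), and 0.783 ± 0.320 CPM (SD, n = 6) in low yield without those 2 libraries. The log2 fold change went from -1.64 ± 1.09 (SE; edgeR adjusted p = 0.654) to 0.10 ± 0.75 (SE; edgeR adjusted p = 0.970) when they were left out, and was -0.43 without low-yield 2 alone. Within high yield, pairs 3 and 7 and 4 and 8 were above the other 2 pairs, each of which lies with low-yield 2 and 5 on the first component.

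Unlike those of the receptors and FOXL2, the fold changes of the 2 AMH rows changed little without low-yield 2 and 5. Neither row passed the test. AMH is a hormone of the TGF-beta family that granulosa cells of growing follicles secrete and that, in mammals, restrains the response to FSH. For LOC117401371 the high-yield samples were at 2.51, 1.72, 3.46 and 5.22 CPM. Low-yield libraries were at 3.37 or above, with a median of 4.88 and a highest value of 14.4 CPM. High-yield 1 and 5 and high-yield 2 and 6 were below every low-yield library, and the other 2 high-yield samples lay within the low-yield range. The pairs below are those that stand apart on the first component, and the part of this in the fold change was not tested. The mean was 3.23 ± 1.51 CPM over high-yield samples (SD, n = 4) and 6.28 ± 3.80 CPM over low-yield ones (SD, n = 8).

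For the second AMH row, LOC117428873, the high-yield samples were at 2.22, 1.19, 1.63 and 2.57 CPM. Low-yield libraries went from 1.82 through a median of 3.25 to 5.96 CPM. Low-yield 2 and low-yield 6 were again the highest, as in the first row, and low-yield 7 and 8 were within the high-yield range. The mean was 1.9 ± 0.614 CPM (SD, n = 4) against 3.45 ± 1.32 CPM (SD, n = 8). Log2 fold changes were -0.94 ± 0.46 and -0.83 ± 0.41 (SE) for LOC117401371 and LOC117428873, each with an edgeR adjusted p of 0.593. Without low-yield 2 and 5 they were -0.70 ± 0.41 and -0.67 ± 0.39 (SE; edgeR adjusted p = 0.486 and 0.490). The exact permutation p, unadjusted, was 0.0707 for the first row and 0.0303 for the second.

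**Figure D2:**
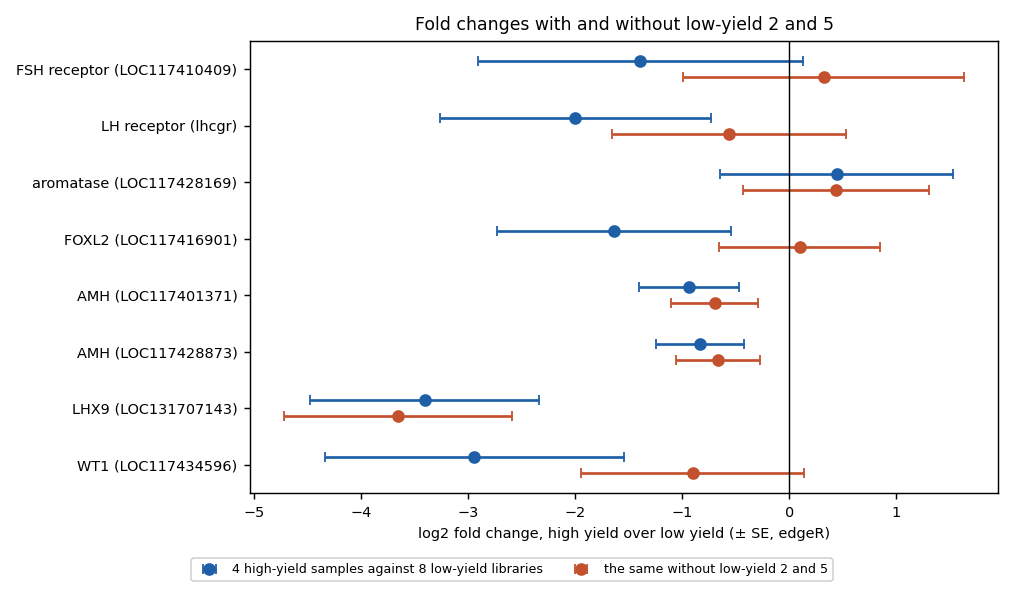
Log2 fold change, high over low yield (horizontal axis, bars ± SE, edgeR), of the 8 genes with all 12 samples (blue) and without low-yield 2 and 5 (red). The FSH receptor and FOXL2 change side, from -1.40 to 0.32 and from -1.64 to 0.10, and the LHX9 row LOC131707143 stays at -3.41 and -3.66.

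The row annotated as LHX9, a LIM homeobox factor without which the mouse gonad does not form, had the largest fold change of the 8 in this fit. This row, LOC131707143, was annotated by likeness to the Lhx9-like protein of the coelacanth, and whether it is LHX9 was not tested. In the fold changes, ratios and correlations of the 8 genes, LHX9 stands for this row only, and the row named lhx9 had another pattern, as given below. LOC131707143 stood at 0.157, 0.0362, 0.628 and 0.110 CPM in the high-yield samples. In low yield it had a lowest value of 0.349, a median of 1.39 and a highest value of 6.59 CPM. The high libraries were low-yield 3 (6.59 CPM), low-yield 4 (5.52 CPM) and low-yield 1 (3.43 CPM), a different set from the one that led for the receptors, FOXL2 and WT1. Low-yield 5, 6 and 8 were below the highest high-yield sample, so the groups overlapped. Low-yield 2 and 5 held 11.6% of the low-yield total. The mean was 0.233 ± 0.268 CPM over high-yield samples (SD, n = 4) and 2.47 ± 2.44 CPM over low-yield ones (SD, n = 8).

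The log2 fold change of this LHX9 row was -3.41 ± 1.07 (SE), with an unadjusted p of 0.0065 and an adjusted p of 0.574 by edgeR. It was -3.66 ± 1.06 (SE; edgeR adjusted p = 0.276) without low-yield 2 and 5. The exact permutation p was 0.0263, unadjusted. DESeq2 on the same summed counts gave a log2 fold change of -3.41 and an adjusted p of 0.0439. It called 86 of 30009 genes (0.287%). The 30009 include genes without an adjusted p from DESeq2, among them the FSH receptor and aromatase. The share among genes with an adjusted p is therefore higher. The adjusted p of this LHX9 row ran from 0.0439 to 0.898 over the settings tried, and only DESeq2 put it under 0.05.

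WT1, a zinc finger factor of the early gonad that granulosa cells keep on making, followed the receptors. High-yield samples had 0.0679, 0.112, 0.341 and 0.408 CPM. Low-yield libraries had a lowest value of 0, a median of 0.597 and a highest value of 7.01 CPM. Low-yield 2 (7.01 CPM) and 5 (4.93 CPM) held 82.2% of the low-yield total, and the other 6 reached at most 1.05 CPM and overlapped with high yield. The log2 fold change was -2.95 ± 1.40 (SE; edgeR adjusted p = 0.584), and -0.90 ± 1.04 (SE; edgeR adjusted p = 0.744) without them. The exact permutation p was 0.204. A row on the other strand overlaps this gene too.

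Sturgeons carry many duplicated genes, and 12 further rows were annotated as the same proteins. Reads could be shared between near-identical copies, so the split of counts between such rows is uncertain. Of these 12 rows 9 had enough counts to be tested and 0 passed by edgeR, with 1 at an unadjusted p under 0.05, and 8 of the 9 had a log2 fold change below 0.

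The other LH receptor rows resembled lhcgr in having low-yield 2 and 5 at the top. LOC117411610 had 5.26 and 5.03 CPM there, and at most 0.724 CPM in the remaining low-yield libraries. LOC117402858 had 5.03 and 5.48 CPM there, with high-yield 4 and 8 next at 3.92 CPM. Their log2 fold changes of -1.89 and -0.34 became 0.79 and 0.88 without the 2 libraries. The row annotated as a second FSH receptor, LOC117403445, was at 0 in 11 of 16 libraries and was not tested.

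The second FOXL2 row, LOC117423332, repeated the pattern of the first. It had 12.2 CPM in low-yield 2 and 6.07 CPM in low-yield 5, and at most 1.64 CPM in the remaining low-yield libraries. High yield ran from 0.258 to 1.49 CPM. Its log2 fold change was -1.82 ± 1.11 (SE; edgeR adjusted p = 0.633), or 0.17 without low-yield 2 and 5. The other FOXL2 rows, LOC117425485 and LOC117432222, also had their highest value in low-yield 2 (1.01 and 2.37 CPM) and had too few counts to be tested. The second aromatase row, LOC117429562, had 0.0917 CPM in low-yield 2, the lowest library of its group, with 0.67 ± 0.75 as log2 fold change (SE; adjusted p = 0.774 by edgeR).

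Rows annotated as LHX9 had unlike patterns. LOC131709032, with 3.25, 3.16 and 1.64 CPM in low-yield 3, 4 and 1, had the same top libraries as LOC131707143. Its high-yield samples reached at most 0.209 CPM, and its log2 fold change was -3.59 ± 1.45 (SE; unadjusted p = 0.0268 and adjusted p = 0.576 by edgeR). By contrast the row lhx9 had 6.77 CPM in low-yield 2 and 3.47 CPM in low-yield 5, and at most 0.587 CPM in the remaining low-yield libraries. In high yield lhx9 ran from 0.445 to 1.77 CPM. The row LOC117405848 likewise had 6.0 and 4.80 CPM in low-yield 2 and 5 and at most 0.393 CPM in the remaining low-yield libraries. The fold change of lhx9 was -0.49 ± 1.03 on the log2 scale, and 1.6 ± 0.64 without those 2 libraries (SE; edgeR adjusted p = 0.888 and 0.343).

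The remaining LHX9 row, c12h1orf53, did not have its peak in low-yield 2 or 5 and stood at 3.65 to 7.67 CPM in high-yield samples and 2.46 to 15.8 CPM in low-yield ones. It lies 3217 bases from lhx9 and also carries the annotation of an uncharacterized protein. The second WT1 row, LOC117432063, had 14.5 CPM in low-yield 2 and 10.2 CPM in low-yield 5, and at most 1.07 CPM in the remaining low-yield libraries. Its high-yield samples ran from 0.414 to 1.11 CPM, and its log2 fold change of -2.01 became 0.80 without those libraries.

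**Figure D3:**
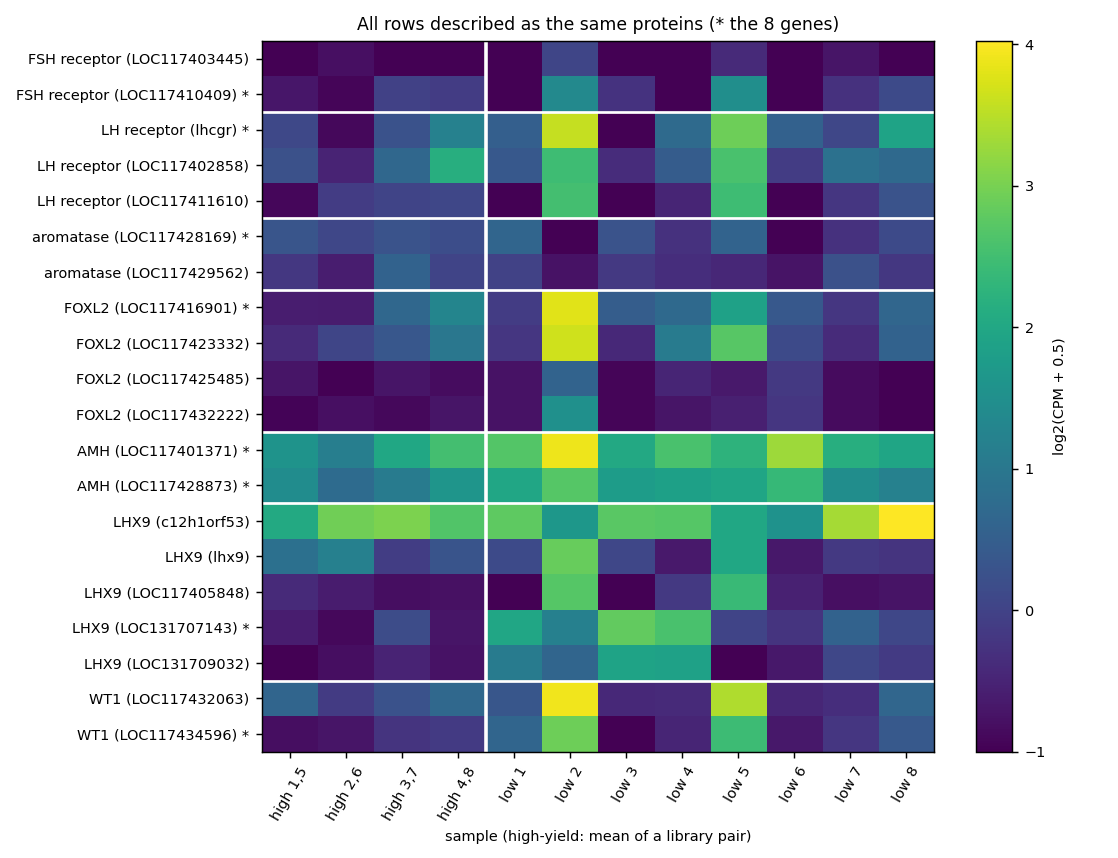
Levels on the log2(CPM + 0.5) scale (colour) of the 8 genes, marked with an asterisk, and the 12 other rows annotated as the same proteins (rows) in 12 samples (columns, high-yield as pair means). Low-yield 2 and 5 are bright for both WT1 rows, all 3 LH receptor rows, lhx9 and LOC117405848, while LOC131707143 and LOC131709032 are brightest in low-yield 3 and 4.

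Co-variation of the 8 genes was measured within the 8 samples that lie together on the first component, high-yield 3 and 7, high-yield 4 and 8, and low-yield 1, 3, 4, 6, 7 and 8. The other 4 samples were left out of r because they stand apart on that component, and among them the levels of lhcgr and FOXL2 were low in both high-yield pairs and high in low-yield 2 and 5. Of the 28 pairs of genes, 0 passed at an adjusted p of 0.05 over the 28 pairs (exact permutation), 3 had an unadjusted p under 0.05 and 12 had a positive r. These 8 samples share TMM scaling and poly(A) capture, and several genes were at a few counts in them.

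The tightest pair was the 2 AMH rows, with Pearson's r = 0.89 (exact permutation p = 0.0030, adjusted p = 0.0771) and Spearman's rho = 0.90 (exact permutation p = 0.0046). Without the 2 samples farthest from the median r was 0.72 (exact permutation p = 0.0972), so the relation rested in part on those samples. The 2 AMH rows carry the same annotation, and whether reads shared between them contribute to this r was not tested. The FSH receptor had a negative r with both AMH rows in these 8 samples, and neither passed adjustment. Its r was -0.81 with LOC117401371 (exact permutation p = 0.0122, adjusted p = 0.114; rho = -0.90, exact permutation p = 0.0054). It was -0.86 with LOC117428873 (exact permutation p = 0.0055, adjusted p = 0.0771; rho = -0.88, exact permutation p = 0.0083). Without the 2 farthest samples these were -0.89 (exact permutation p = 0.0611) and -0.92 (exact permutation p = 0.0153). Over the 10 samples without low-yield 2 and 5, r was -0.24 (permutation p = 0.494) and -0.41 (permutation p = 0.236), and over all 12 samples it had the opposite sign, at 0.31 (permutation p = 0.327) and 0.32 (permutation p = 0.307). The sign and size of this relation therefore changed with the samples taken. The FSH receptor had a count of 0 in low-yield 1, 4 and 6, the same 3 libraries in which AMH LOC117401371 was at 5.52 CPM or above among these 8 samples.

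None of the other 25 pairs had an unadjusted p under 0.05. FOXL2 and aromatase had an r of 0.06 (exact permutation p = 0.887; rho = 0.10, exact permutation p = 0.840), and 0.51 without the 2 farthest samples (exact permutation p = 0.406). FSH receptor and aromatase had an r of 0.37 (exact permutation p = 0.385; rho = 0.22, exact permutation p = 0.617), and 0.90 without the 2 farthest samples (exact permutation p = 0.0528). LH receptor and WT1 had an r of 0.63 (exact permutation p = 0.0870, adjusted p = 0.609; rho = 0.45, exact permutation p = 0.268), which became -0.05 without the 2 farthest samples. For LHX9 the largest r in size was -0.56, with lhcgr (exact permutation p = 0.153; rho = -0.60, exact permutation p = 0.132). A p above the threshold with 8 samples does not show that these genes vary apart.

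**Figure D4:**
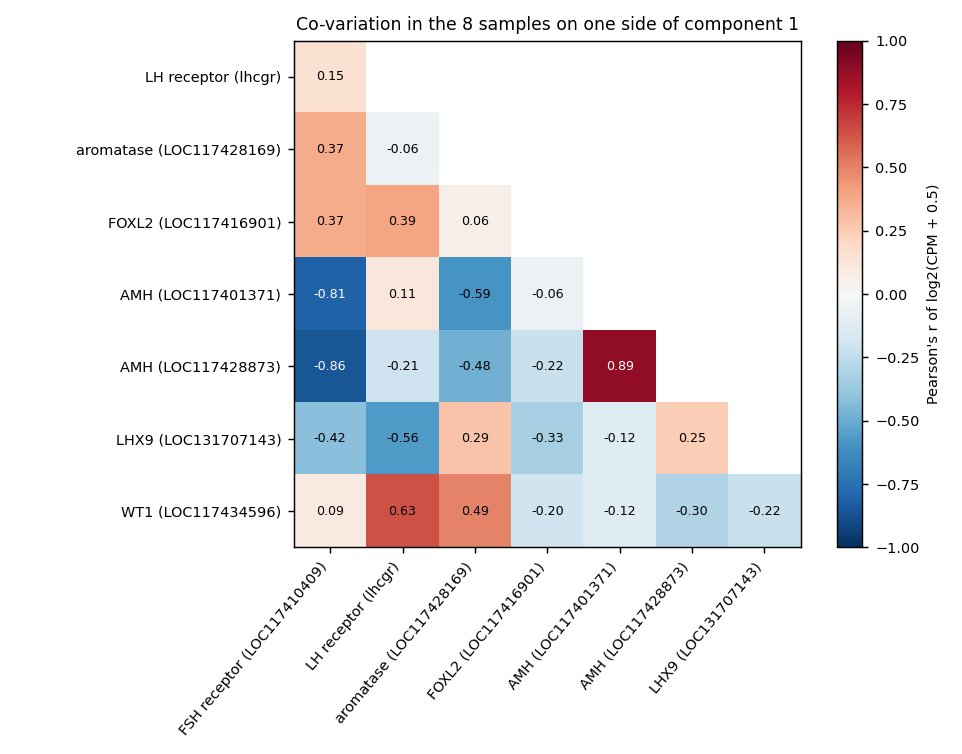
Pearson's r of log2(CPM + 0.5) for the 28 pairs of the 8 genes (both axes list genes) in the 8 samples that lie together on the first principal component. The AMH pair is at 0.89, the FSH receptor is at -0.81 and -0.86 with the AMH rows, and 0 of 28 pairs passed adjustment.

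With all 12 samples 8 of 28 pairs passed by Pearson's r, among them the pairs of lhcgr with WT1, FOXL2 and the FSH receptor. By Spearman's rho 3 passed, and by Pearson's r without the 2 samples farthest from the median 0 passed. The counts that follow are by Pearson's r. Without low-yield 2 and 5 the 1 pair that passed over the remaining 10 samples was the AMH pair. In the 8 low-yield libraries alone 3 passed, and with the 16 libraries treated as independent 14 passed. Since low-yield 2 and 5 stand apart, r is not given for the pairs behind these counts. Among rows of the same protein, LOC131707143 and LOC131709032 had an r of 0.99 over the 8 samples and the FOXL2 rows LOC117416901 and LOC117423332 an r of 0.80. The WT1 rows had 0.74, the aromatase rows 0.61 and lhcgr with LOC117411610 0.61 (all n = 8, described without a test). Some other pairs of rows of the same protein had a low or negative r in these 8 samples. The FSH receptor rows had an r of 0.13, with LOC117403445 above 0 in low-yield 7 only (0.106 CPM). FOXL2 LOC117416901 had -0.02 with each of LOC117425485 and LOC117432222, and LOC131707143 had -0.07 with lhx9. The rows lhx9 and LOC117405848, both high in low-yield 2 and 5, had an r of -0.81 in the 8 samples that leave those libraries out. LOC117425485, LOC117432222 and LOC117405848 had few counts in these samples, so these values do not show that the copies vary apart.

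The genes whose profile over the 12 samples was most like each of the 8 were taken from 22202 annotated genes with a mean of at least 1 CPM. These likenesses are descriptions, since all 12 samples enter and low-yield 2 and 5 weigh heavily. Closest to the FSH receptor was agtr1a, annotated as a type-1 angiotensin II receptor (r = 0.97, n = 12), at 7.29 and 13.7 CPM in low-yield 2 and 5 and a high-yield mean of 1.04 CPM. Closest to lhcgr was LOC131699438, annotated as toll-like receptor 2 type-2 (r = 0.97, n = 12). Closest to FOXL2 was LOC117412163, annotated as the alpha-1(IV) chain of collagen (r = 0.96, n = 12), and to WT1 LOC117421276, annotated as the methylcytosine dioxygenase TET3 (r = 0.97, n = 12).

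Aromatase had different neighbours. The gene most like it was LOC117413653, annotated as zona pellucida sperm-binding protein 3, a component of the egg coat (r = 0.94, n = 12), with 362 CPM in low-yield 2 against a low-yield mean of 1070 CPM. For the AMH rows the closest were LOC117427754, annotated as elongation factor Tu GTP-binding domain-containing protein 1 (r = 0.95 with LOC117401371, n = 12), and LOC117422990, annotated as disks large-like 1 (r = 0.95 with LOC117428873, n = 12). For LHX9 it was LOC117435654, annotated as copine-4 (r = 0.92, n = 12). By Spearman's rho, 6 of the 24 genes named by Pearson's r (3 for each of the 8) stayed among the closest 3.

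Markers of other cells moved with low-yield 2 and 5. The 35 rows of fibroblast and matrix markers (collagens, decorin and others) summed to 1091 CPM in low-yield 2 and 1996 CPM in low-yield 5, against 125 to 248 CPM in the remaining low-yield libraries and 87.6 to 233 CPM in high yield. Of its 31 tested rows, 31 had a log2 fold change below 0, beside 51.4% of all tested genes. Their median was -1.64, or -0.15 without the 2 libraries. Leukocyte markers (26 rows) were at 118 and 121 CPM in low-yield 2 and 5 and at 8.31 to 26.4 CPM in the other 14 libraries. Smooth muscle markers (23 rows) were at 445 and 2761 CPM there and at 199 to 389 CPM elsewhere. Endothelium markers (25 rows) were at 120 and 353 CPM there and at 22.1 to 50.2 CPM elsewhere.

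Among follicle cell markers the picture was less uniform. Granulosa markers other than the 8 (9 rows for inhibin alpha, gap junction and keratin genes) were at 40.8 and 21.6 CPM in low-yield 2 and 5, against 30.3 to 91.8 CPM in the remaining low-yield libraries and 5.27 to 44.3 CPM in high yield. Their mean z-score, which weighs rows alike, was highest in low-yield 2 (2.14). Theca and interstitial markers (18 rows) were at 20.4 and 35.8 CPM there, against 4.74 to 18.3 CPM elsewhere. Erythrocyte markers (13 rows) ranged from 17.3 to 73.6 CPM, and the single mesothelium marker found (2 rows) from 0 to 2.53 CPM. Oocyte markers (105 rows) were lowest in low-yield 2 and highest in low-yield 5, so these 2 libraries differed in oocyte RNA. No marker found in the table was at 0 in all libraries. The part of these cell types in the results for the FSH receptor, lhcgr, FOXL2 and WT1 was not tested, while the values for LHX9 and AMH without the 2 libraries are given above.

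**Figure D5:**
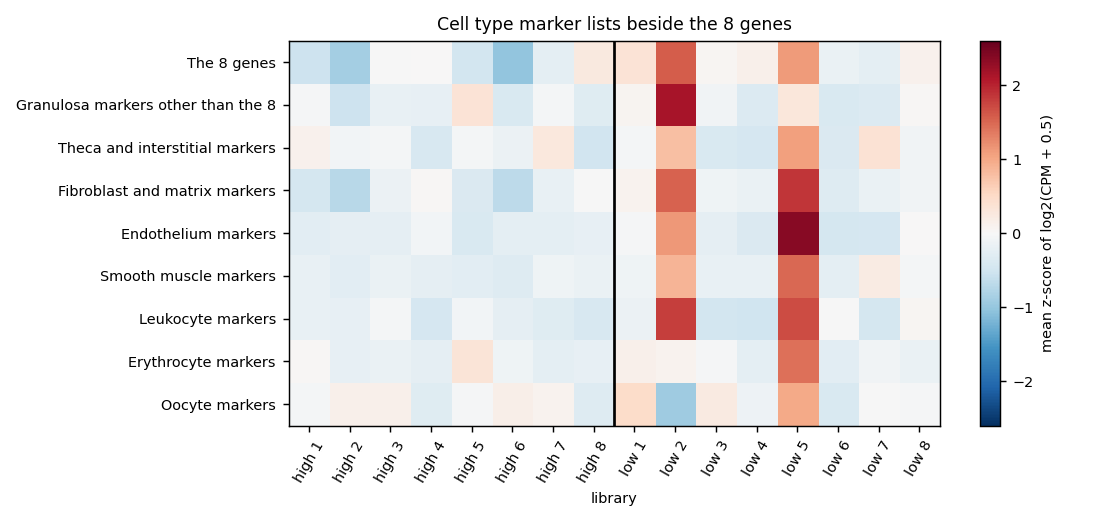
Mean z-score of log2(CPM + 0.5) (colour) of each marker list and of the 8 genes (rows) in the 16 libraries (columns). Low-yield 2 and 5 have the highest scores of the 8 genes and of the fibroblast, endothelium, smooth muscle and leukocyte lists, and differ in the oocyte list.

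In 6 further pathway lists, which hold other genes of the same pathways, 0 rows of any list passed by edgeR. Among ovarian fate genes 15 of 17 tested rows had a log2 fold change below 0, with a median of -0.70, or -0.22 without low-yield 2 and 5. Over all 30009 tested genes, beside which each of these lists is set, the median was -0.02 and 51.4% were below 0. The ovarian fate list holds the FOXL2 rows already described. R-spondin-1, a secreted amplifier of Wnt signals in the ovary, had 14.1 and 7.56 CPM in low-yield 2 and 5 for its row LOC131699709, whose log2 fold change was -2.34 ± 1.22 (SE; adjusted p = 0.605 by edgeR). The row wnt4b, annotated as Wnt-4a, averaged 0.0253 CPM over high-yield samples and 0.523 CPM over low-yield ones. Its high-yield samples reached at most 0.0674 CPM, about what a count of 0 allows, so the size of its fold change is uncertain. The log2 fold change of wnt4b was -4.25 ± 1.54 with all samples (SE; edgeR adjusted p = 0.574) and -4.26 without low-yield 2 and 5.

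Testis fate genes lay on both sides, with 2 of 5 tested rows below 0 and a median of 0.20. The AMH receptor row LOC131709316, through which AMH acts, had 11.1 ± 4.03 CPM over high-yield samples (SD, n = 4) and 9.92 ± 3.24 CPM over low-yield ones (SD, n = 8), so the groups overlapped. The testis factor DMRT1 was low, with an average of 0.389 CPM over high-yield samples and 0.702 CPM over low-yield ones for LOC131738109. This row also peaked in low-yield 2 and 5, at 1.91 and 1.17 CPM, against at most 0.745 CPM in the other samples. The mean z-score of the testis fate list was highest in these 2 libraries as well, at 1.62 and 1.23. No row was found for SOX8, GSDF, DHH or PTGDS by symbol or annotation.

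Early gonad regulators had 11 of 14 tested rows below 0 and a median of -0.22. GATA4, a partner of WT1 and steroidogenic factor 1 in the gonad, had 5.16 and 5.50 CPM in low-yield 2 and 5 and at most 0.306 CPM in every other sample. Steroidogenic factor 1, a nuclear receptor that switches on steroid enzymes (LOC117422607), had 5.33 and 4.48 CPM in those 2 and at most 1.42 CPM in the other samples. Its log2 fold change was -1.39 ± 0.98 (SE; edgeR adjusted p = 0.666), or 0.22 without them. The SIX4 row LOC117963850 went the other way, at 5.15 and 6.78 CPM in low-yield 2 and 5 and at least 12.4 CPM in the other samples. The list summed to 137 and 91.5 CPM in those 2, against 184 to 234 CPM in the remaining low-yield libraries and 101 to 281 CPM in high yield. Its mean z-score, which weighs rows alike, was highest in those 2 (1.01 and 0.402).

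In steroid synthesis 11 of 16 tested rows were below 0, with a median of -0.40, or 0.01 without low-yield 2 and 5. Adrenodoxin (LOC117406416), which passes electrons to the mitochondrial enzymes that cut cholesterol, was at 7.94 ± 1.85 CPM over high-yield samples (SD, n = 4) and 4.91 ± 1.47 CPM over low-yield ones (SD, n = 8). Its log2 fold change of 0.71 ± 0.31 (SE) had an unadjusted p of 0.0390 and an adjusted p of 0.580 by edgeR. StAR, which brings cholesterol into mitochondria (LOC117397793), was at 0.437 ± 0.219 CPM (SD, n = 4) and 0.755 ± 0.426 CPM (SD, n = 8). Cytochrome P450 reductase, the electron donor of aromatase (LOC117429952), was at 18.3 ± 7.32 CPM (SD, n = 4) and 25.6 ± 6.53 CPM (SD, n = 8).

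Inhibin and activin genes had 8 of 17 tested rows below 0 and a median of 0.17. The activin receptor type-1 row LOC131709250 had 4.02 and 10.2 CPM in low-yield 2 and 5 and at most 0.667 CPM in the other samples, while LOC117410035 of the same annotation was at 70.4 ± 9.54 CPM over high-yield samples (SD, n = 4) and 56.9 ± 12.8 CPM over low-yield ones (SD, n = 8). Genes that carry the gonadotropin signal inside the cell had 23 of 47 tested rows below 0 and a median of 0.05. The catalytic subunit beta of protein kinase A (LOC117417322), which cyclic AMP releases, had a log2 fold change of 0.95 ± 0.40 (SE; unadjusted p = 0.0308 and adjusted p = 0.578 by edgeR). The row LOC117402053 for phosphodiesterase 4A, which breaks cyclic AMP down, was at 1.27 ± 0.775 CPM (SD, n = 4) and 0.340 ± 0.270 CPM (SD, n = 8), with an adjusted p of 0.581 by edgeR. Adenylate cyclase type 5 (LOC117408099), which makes cyclic AMP, had a log2 fold change of -0.94 ± 0.39 (SE; adjusted p = 0.578 by edgeR).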

How the data were processed

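Ovary RNA was poly(A)-selected per the labels, and adapters were trimmed with cutadapt 1.9, per the submitters' processing notes. For the aligner, counting program, strand setting and genome build, nothing is given in the sources used here. The deposited table holds counts and FPKM for 41685 rows, per the file headers. The deposited counts and FPKM of a row stand in a fixed ratio, and for 3213 of 34416 rows (9.34%) the length this implies exceeds the span of the gene by over 5%, so the counts may derive from coverage. Of the rows, 37878 carry only a locus number, and proteins were found by annotation.

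The main test was edgeR 4.0.16 (filterByExpr, TMM, quasi-likelihood F test, two-sided, adjusted over all tested genes) on counts with near-identical high-yield libraries summed. The labels' design gives 8 females per group, and whether near-identical libraries are separate animals was not tested, so p-values measure the spread between these samples. Single genes, 8 ratios and 28 correlations were tested by exact permutation on log2(CPM + 0.5), with the absolute difference or r as statistic. Correlations over 10 samples or more used 100000 resamples. The design named 12 samples for correlations, and its clause on clustered samples restricted them to 8. Alternatives were DESeq2 1.42.0, limma 3.58.1 on log2(FPKM + 1), other scalings, filters and pseudocounts, and omission of samples. The limma fits kept genes averaging 1 FPKM or more, and the 8 genes whatever their level. The 2 alternatives on the 8 clustered samples and on the other rows of the same proteins were chosen after seeing the data.

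Members, lists and rules were chosen with earlier results of these data known. The genes named are taken from the 8 genes, all rows annotated as the same proteins, the 3 most similar genes of each (of which the first is given) and up to 4 genes with the smallest p in each of 6 lists. Replicate numbers are shared between groups, and the deviations of same-numbered libraries, given below, do not decide whether these are paired. Scripts were tested on simulated data. Software was R 4.3.3 and Python 3.11.15 (matplotlib 3.10.9, numpy 2.4.6, pandas 2.3.3).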

Additional observations from a re-analysis of the deposited data

Results flagged for a closer look

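FOXL2 (LOC117416901) stood at 13.5 CPM in low-yield 2. The gap from this library to the next of the 8 low-yield libraries was 0.788 of the range of the group, past the limit of Dixon's ratio for 8 values. Of the 8 genes in 2 groups, 16 sets of values were examined in this way, on CPM and not on the log2 scale. For normally distributed values, chance alone sets off the test in about 1 in 20 groups. Whether CPM values are so distributed was not tested. The second FOXL2 row, LOC117423332, had 12.2 CPM in the same library and 6.07 CPM in low-yield 5, and was not among these sets.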

How the results depend on the processing

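Over the alternatives, 181 fold changes of the 8 genes kept direction and side of the threshold, and 2 reversed. Both reversals were without low-yield 2 and 5, in the FSH receptor (0.32) and FOXL2 (0.10). The FSH receptor and aromatase had no adjusted p from DESeq2, and these values were counted among the 181. DESeq2 moved the count past the threshold from 0 to 1, the LHX9 row, and gave FOXL2 -0.41; the cause was not tested. Leaving out each sample moved the FSH receptor from -1.81 to -0.84, lhcgr from -2.84 to -1.38, FOXL2 from -2.46 to -0.43, WT1 from -3.37 to -2.25 and LHX9 from -4.55 to -3.02 on the log2 scale. With a pseudocount of 0.05 CPM, 1 of the 8 ratios passed (LHX9 over aromatase, adjusted exact permutation p = 0.0485) instead of 0. That pseudocount lies at the low end of what a count of 0 allows. Of 28 correlations by Pearson's r 0 passed in the 8 clustered samples, and 1 with library size alone. With 12 samples the count was 8, or 7 with a pseudocount of 0.05 CPM and 11 with library size alone. It was 1 without low-yield 2 and 5, 3 in the low-yield libraries and 14 with 16 libraries. By Spearman's rho the count was 0 in the 8 clustered samples and 3 with 12 samples. It was 1 without low-yield 2 and 5, 1 in the low-yield libraries and 7 with 16 libraries. Of the nearest genes, 6 of 24 were shared with Spearman's rho.

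With the replicate number as a block (16 libraries), 0 of the 8 genes passed, as without it. The replicate block gave -0.05 for the FSH receptor, -1.43 for lhcgr, 1.12 for aromatase, -1.18 for FOXL2, -0.87 and -0.83 for AMH, -3.34 for LHX9 and -2.30 for WT1. Same-numbered libraries had correlations of their deviations from -0.197 to 0.396, with 4 of 8 over 0.1 and 3 of 8 highest with their own number. These values do not decide whether the numbers pair the samples.

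For the other rows of the same proteins 20 values reversed and 167 did not. Without low-yield 2 and 5, LOC117402858 was at 0.88, LOC117411610 at 0.79, LOC117423332 at 0.17, lhx9 at 1.6 and LOC117432063 at 0.80. Under the replicate block LOC117411610 was at 0.19, c12h1orf53 at 0.083, lhx9 at 0.49 and LOC117432063 at 0.039. With limma on log2(FPKM + 1) and on log2(FPKM + 0.1), c12h1orf53 was at 0.0052 and 0.070, and lhx9 at 0.019 and 0.42. DESeq2 gave LOC117405848 0.12. Leaving out single samples moved LOC117402858 from -1.47 to 0.094, c12h1orf53 from -0.21 to 0.24 and lhx9 from -0.85 to 0.41. Most of these rows have few counts, which limits what a fold change of the low rows can show.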
